A study of Mus musculus with 4 samples.

Results

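S1pr1, Klf2, Lef1, Tcf7, Il7r and Dapl1 are 6 genes tied to the recirculation and the resting state of lymphocytes. They were taken by symbol, as a list, from the 32285 genes counted in single CD45+ leukocytes of the healthy mouse liver, and are described here in classes of cells gated on marker genes. The cells came from PA-GFP C57BL/6 mice, which carry a green fluorescent protein that light switches on, and all 4 libraries had the photoactivation treatment. PV replicates 1 and 2 hold cells of the zone around the portal vein, where blood enters the lobule, and CV replicates 1 and 2 those of the zone around the central vein, where it leaves. No age, sex or number of mice is given in the sources used here, so p-values rest on the spread among libraries, part of which may be technical. After filtering, 1593 cells remained, between 333 and 512 per library with median depths of 5369 to 6317.5 unique molecular identifiers (UMIs, each standing for 1 captured transcript). Of 1939 barcodes, 282 occurred in more than 1 library, and such a barcode was kept only where at least 70% of its UMIs lay. Ptprc, which encodes CD45, had a UMI in 1496 of the 1593 cells.

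A resting T or B cell circulates between blood and lymphoid organs. S1pr1 encodes the receptor that senses sphingosine-1-phosphate, a lipid that is plentiful in blood and lymph, and draws lymphocytes out of tissue. Klf2 encodes a zinc-finger transcription factor that keeps lymphocytes quiescent and switches on S1pr1. Il7r encodes the receptor chain for interleukin 7, a survival factor of resting T cells and of innate lymphoid cells. Tcf7 and Lef1 encode TCF1 and LEF1, paired transcription factors of naive and memory-like T cells, and Dapl1 encodes a small protein whose transcript is known from naive T cells. T cells that settle in tissue turn much of this programme down, and in the liver many of them carry Cxcr6, a chemokine receptor for CXCL16.

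Positions below are from GENCODE vM21 on GRCm38, the build also called mm10. S1pr1 (ENSMUSG00000045092) lies on chr3:115710433-115715072 on the minus strand and Klf2 (ENSMUSG00000055148) on chr8:72319033-72321656 on the plus strand. Il7r (ENSMUSG00000003882) lies on chr15:9505788-9530176 and Tcf7 (ENSMUSG00000000782) on chr11:52252371-52283014, both on the minus strand. Lef1 (ENSMUSG00000027985) lies on chr3:131110471-131224356 and Dapl1 (ENSMUSG00000026989) on chr2:59484653-59505020, both on the plus strand. The models of Lef1 and Tcf7 overlap Gm42449 and Gm26551 on the same strand, so UMIs in the shared parts may be split between these genes. The others overlap no gene on either strand.

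Because these genes moved together in T cells, the 250 bases before their annotated starts were read for motifs of factors of the same programme. RefSeq (GRCm38.p6) gave 9 windows for 5 of the 6 genes, Klf2, Lef1, Tcf7, Il7r and Dapl1. On either strand, 4 motifs were searched: GTAAACA of the FOXO factors, CACCC of the KLF factors, TCAAAG of TCF1 and LEF1, and CTAAA joined to its reverse complement, of the MEF2 factors. Of 32851 mouse windows of that length, 3.17% held GTAAACA, 52.0% CACCC, 13.8% TCAAAG and 0.0396% CTAAATTTAG. Only that exact string was searched for MEF2, so its share is not that of MEF2 motifs in general. Stretches without annotated exons are shown 5′ to 3′ on the gene's strand for 3 starts, with matches to either strand in capitals. They are the start of Dapl1, the gene most tied to one class here, that of Klf2, the most widely detected, and a start inside Lef1.
Dapl1 (chr2:59484403-59484652, plus strand): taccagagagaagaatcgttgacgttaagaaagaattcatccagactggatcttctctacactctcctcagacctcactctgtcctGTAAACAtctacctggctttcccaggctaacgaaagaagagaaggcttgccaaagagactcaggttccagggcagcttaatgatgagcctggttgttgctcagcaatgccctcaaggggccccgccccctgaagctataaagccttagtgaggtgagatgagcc
Klf2 (chr8:72318812-72319032, plus strand): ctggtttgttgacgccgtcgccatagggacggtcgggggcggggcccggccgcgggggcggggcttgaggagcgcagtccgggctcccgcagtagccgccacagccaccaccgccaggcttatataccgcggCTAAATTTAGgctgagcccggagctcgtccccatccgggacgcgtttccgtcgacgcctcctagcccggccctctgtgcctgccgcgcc
Lef1 (chr3:131156044-131156293, plus strand): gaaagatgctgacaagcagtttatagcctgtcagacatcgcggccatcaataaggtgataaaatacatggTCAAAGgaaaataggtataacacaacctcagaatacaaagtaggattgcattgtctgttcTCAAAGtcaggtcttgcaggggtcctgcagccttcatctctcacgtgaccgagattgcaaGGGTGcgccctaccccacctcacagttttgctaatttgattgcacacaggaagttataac
The Dapl1 window held 1 FOXO motif, at position -164 from the start, and none of the other 3. The Klf2 window held CTAAATTTAG at -118, an exact string that 13 of the 32851 windows held. It also held a reverse CACCC at -19 in the annotated exon, which is not shown. The Lef1 window, 1 of 4 for that gene and the one shown for its TCAAAG motifs, held them at -180 and -120 and a reverse CACCC at -60. The other 3 Lef1 windows held no TCAAAG and 3, 3 and 2 CACCC matches. The Tcf7 windows held 2 CACCC motifs each, and the Il7r window held none of the 4 motifs. Annotated exons overlapped the Lef1 windows with 3 CACCC matches (exons of Gm43352), 1 Tcf7 window and the Il7r window (exons of the gene itself). Letters of these windows may thus lie in transcribed sequence. A match describes letters and not binding, which was not measured.

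T cells were gated on at least 3 UMIs of Cd3d, Cd3e and Trac. These had to be at least 3 times the UMIs of B cell, macrophage, endothelial and dendritic cell markers. Natural killer and neutrophil markers were not limited by this gate. T cells numbered 707 of the 966 gated lymphoid cells (T, natural killer, innate lymphoid, B and plasma cells). They were divided by a Cxcr6 UMI into 601 Cxcr6-positive and 106 Cxcr6-negative cells. The Cxcr6-negative cells numbered 15 and 34 in PV replicates 1 and 2, and 21 and 36 in CV replicates 1 and 2. Levels are given as UMIs of a gene per 1000000 UMIs of the summed class (CPM), a scale on which 1 gene can be compared between classes. All 6 genes were lower in the Cxcr6-positive sum than in the Cxcr6-negative sum of each library. Where both sums held UMIs, the difference ran from 1.89-fold (Il7r, CV replicate 1) to 52.7-fold (Dapl1, PV replicate 2). Dapl1 in CV replicate 1 had 16 UMIs against 0, at least 45.3-fold with a floor of 3 counts. All 6 passed the quasi-likelihood test of edgeR, with the library as a block and Benjamini-Hochberg adjustment over 6684 genes, in which 6.64% of genes were called in either direction and 3.77% were called lower. The median log2 difference over all genes tested was 0.03.

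Of the receptors, S1pr1 reached 151 and 406 CPM in the Cxcr6-negative T cells of PV replicates 1 and 2, and 114 and 227 CPM in CV replicates 1 and 2. In the Cxcr6-positive T cells of the same libraries it stood at 19.2, 17.2, 10.1 and 9.95 CPM. The groups did not overlap, and the lowest Cxcr6-negative sum was far above the highest Cxcr6-positive one. The log2 difference was -4.12 ± 0.30 (SE, 4 libraries, edgeR adjusted p = 1.1e-12). After each cell was thinned to 2000 UMIs, so that depth was equal, 38.6% of 101 Cxcr6-negative cells had an S1pr1 UMI (95% Wilson interval 29.7 to 48.4%), against 3.03% of 595 Cxcr6-positive cells (1.92 to 4.73%). Macrophages, thinned the same way, had one in 1.21% of 247 cells. Without thinning, at median depths of 5581 UMIs for Cxcr6-negative and 6422 for Cxcr6-positive T cells, the shares were 52.8% and 6.49%. Intervals are over cells of all libraries and cover counting error only.

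Il7r showed the mildest difference of the 6. Its levels in Cxcr6-negative T cells were 951 and 1259 CPM in PV replicates 1 and 2, and 779 and 1002 CPM in CV replicates 1 and 2. Cxcr6-positive T cells held 468, 404, 411 and 362 CPM. Every Cxcr6-negative sum was above every Cxcr6-positive one, with a log2 difference of -1.44 ± 0.14 (edgeR adjusted p = 1.4e-09), or -0.69 (0.019) when cells were thinned to 2000 UMIs before the split. Thinned shares were 72.3% (62.9 to 80.1%) and 43.4% (39.4 to 47.4%), so the Cxcr6-positive cells still carried the transcript widely, and they held 61.8% of all Il7r UMIs of the kept cells.

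Of the transcription factors, Tcf7 was measured at 255 and 493 CPM in the Cxcr6-negative T cells of PV replicates 1 and 2, and at 389 and 355 CPM in CV replicates 1 and 2. The Cxcr6-positive values were 84.1, 61.5, 58.1 and 57.5 CPM, with no overlap, and the log2 difference was -2.69 ± 0.21 (edgeR adjusted p = 6.9e-12). Lef1 reached 174, 514, 342 and 462 CPM in Cxcr6-negative T cells, in the same order, and 86.6, 119, 104 and 107 CPM in Cxcr6-positive ones. Its log2 difference was -1.98 ± 0.19 (edgeR adjusted p = 1.4e-09), and it was the one gene of the 6 whose call was lost in an alternative run: with cells thinned to 2000 UMIs before the split, the difference was -0.92 with an adjusted p of 0.058, and 64 genes in all were called. Thinning also moved cells with few Cxcr6 UMIs across the split, so that 237 T cells counted as Cxcr6-negative, and all 6 differences were smaller: -3.18 for S1pr1, -1.94 for Tcf7 and -4.40 for Dapl1. Both factors thus stayed detectable in Cxcr6-positive cells, with thinned shares of 10.9% for Tcf7 and 17.5% for Lef1 against 0.405% of macrophages for each.

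Klf2 separated the classes of T cells less cleanly. Cxcr6-negative sums held 209 and 1090 CPM in PV replicates 1 and 2, and 731 and 474 CPM in CV replicates 1 and 2. Cxcr6-positive sums held 98.3, 276, 164 and 230 CPM. The Cxcr6-negative value of PV replicate 1 lay below 2 of the Cxcr6-positive values of other libraries, while within each library the Cxcr6-negative sum was 2.06 to 4.45 times higher. The log2 difference with the library as a block was -1.77 ± 0.18 (edgeR adjusted p = 1.8e-09), or -0.93 (0.027) when cells were thinned to 2000 UMIs before the split.

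Dapl1 was the most sharply divided gene. Cxcr6-negative T cells held 243 and 334 CPM in PV replicates 1 and 2, and 152 and 437 CPM in CV replicates 1 and 2, against 9.99, 6.33, 0 and 15.5 CPM in Cxcr6-positive T cells (log2 difference -5.36 ± 0.30, edgeR adjusted p = 1.1e-15). Of its 245 UMIs in the kept cells, 208 (84.9%) lay in the 106 Cxcr6-negative T cells. The 33 UMIs of Cxcr6-positive T cells came from 5 of the 601 cells, each of which also had Klf2, Lef1 and Tcf7 UMIs. Without any thinning, 31 of the 106 Cxcr6-negative cells had a Dapl1 UMI, and all 31 had Klf2, 29 had Tcf7 and 28 had Lef1.

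**Figure D1:**
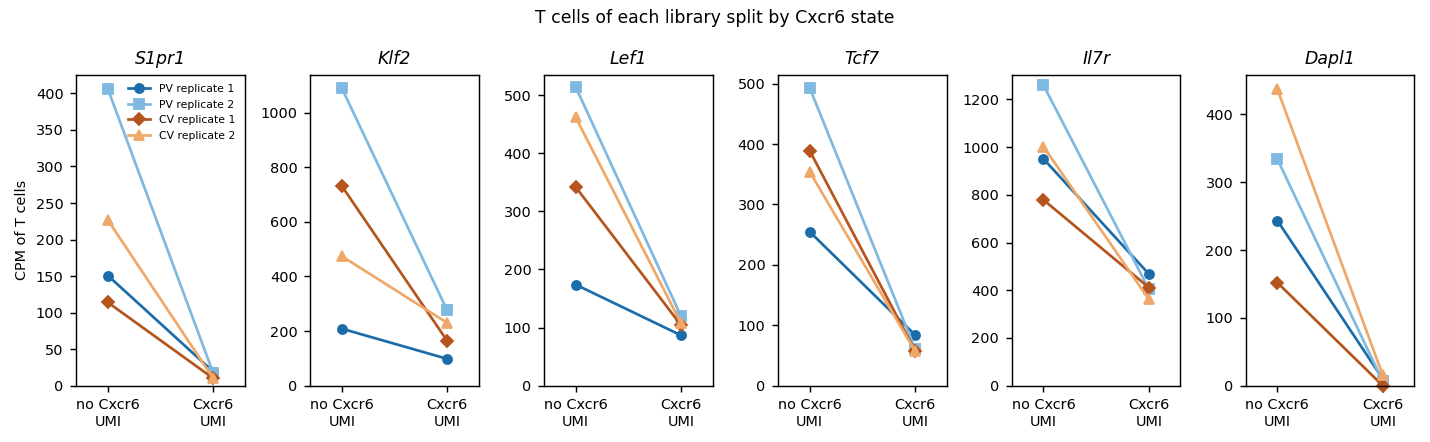
Level of each gene (CPM of the summed T cells, linear axis from 0) in T cells without and with a Cxcr6 UMI, with 1 line and symbol per library. All lines fall from the Cxcr6-negative to the Cxcr6-positive sum, from 406 to 17.2 for S1pr1 in PV replicate 2, and Klf2 has the widest spread between libraries on the left.

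The Cxcr6-positive class is broad: 57 of the 601 cells had exactly 1 Cxcr6 UMI, and 8 T cells had exactly 3 of the gating UMIs. With at least 2 Cxcr6 UMIs, with γδ and Foxp3 T cells left out, with 12 scrublet doublets left out, with barcodes found in 1 library only and without each library in turn, all 6 genes were called lower. The number of genes called among all tested was 444, and fell to 182 without PV replicate 2 and to 244 without CV replicate 2, the libraries with the most Cxcr6-negative cells. The kinds of T cell differed between the classes too. Klrb1c, a receptor of natural killer and NKT cells, had a UMI in 73.9% of Cxcr6-positive and 17.0% of Cxcr6-negative T cells, and Zbtb16, which encodes the NKT cell factor PLZF, in 24.3% and 7.55%. Cd8b1 had a UMI in 3.33% and 31.1%, and 418 of the 601 and 42 of the 106 cells had none of Cd4, Cd8a and Cd8b1. The 6 natural killer markers summed to 417 to 571 CPM in Cxcr6-positive and 171 to 425 CPM in Cxcr6-negative T cells, while Ncr1 among them had a UMI in 14 and 1 cells. In settings added after seeing the data, all 6 genes were called lower among CD4 T cells alone (31 Cxcr6-negative and 153 Cxcr6-positive cells, 186 of 2230 genes called) and among T cells with no Klrb1c UMI (88 and 157 cells, 323 of 3032 genes called). Among CD4 cells the log2 differences were -4.26 for S1pr1, -2.72 for Klf2, -1.94 for Lef1, -3.11 for Tcf7 and -1.79 for Il7r, and Dapl1 had 64 UMIs in the Cxcr6-negative and none in the Cxcr6-positive cells. Without Klrb1c they were -3.46 for S1pr1, -1.55 for Klf2, -2.47 for Lef1, -2.32 for Tcf7, -1.40 for Il7r and -3.73 for Dapl1. Markers of other cells differed in part. The 7 endothelial markers, watched because endothelium carries both S1pr1 and Klf2, summed to 28.5 to 72.0 CPM in Cxcr6-negative T cells and 11.1 to 14.99 CPM in Cxcr6-positive ones. Pecam1, which leukocytes also express, made up 31 of the 33 UMIs in the Cxcr6-negative cells, and Stab2, Kdr, Clec4g, Ptprb and Egfl7 were at 0. Neutrophil markers reached 497 CPM in the Cxcr6-positive sum of PV replicate 2 and at most 38.0 CPM in the Cxcr6-negative sums, with all 5 detected in the former class and 2 of 5 at 0 in the latter, and their part in the result was not tested.

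Single cells carried several of the genes at once. In cells thinned to 2000 UMIs, Cxcr6-negative T cells had a UMI of 2.81 of the 6 genes on average, and 39 of 101 had 4 or more. Cxcr6-positive T cells had 0.928 on average, and 3 of 595 had 4 or more. The Cxcr6-negative averages per library were 2.15 and 3.48 in PV replicates 1 and 2, and 2.21 and 2.75 in CV replicates 1 and 2, all above the highest Cxcr6-positive library at 1.02. All 6 genes at once were seen in 5 cells, each Cxcr6-negative.

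**Figure D2:**
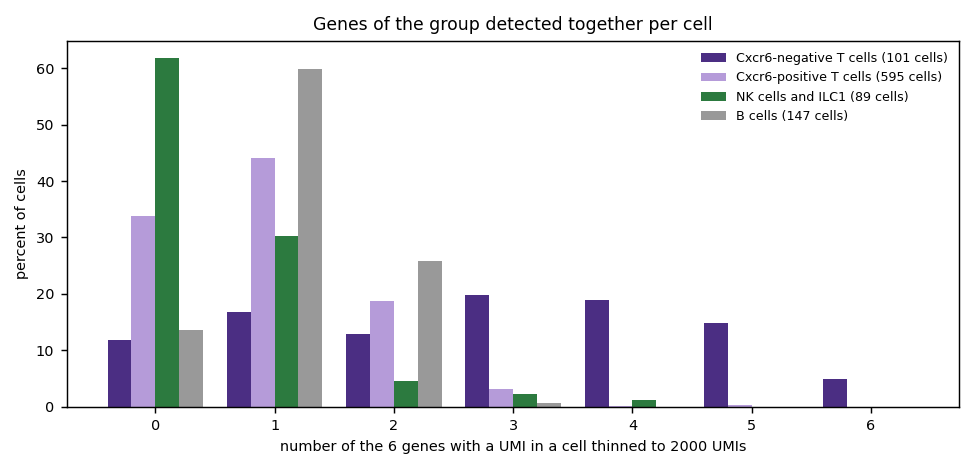
Percent of cells (vertical axis) with a UMI of 0 to 6 of the genes (horizontal axis), each cell thinned to 2000 UMIs, for 4 gated classes pooled over the libraries. Cxcr6-negative T cells reach 38.6% at 4 or more, the other classes shown at most 1.12%, and most natural killer cells and ILC1 have none.

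CD8 and CD4 T cells without Cxcr6 could not be compared with a test, since no library held at least 10 cells of each. Summed over the libraries, 32 CD8 cells (Cd8a or Cd8b1 UMI and no Cd4) and 31 CD4 cells entered the thinned shares. Dapl1 stood at 512 CPM in the CD8 and 322 CPM in the CD4 sum, Lef1 at 536 and 407, Tcf7 at 455 and 478, S1pr1 at 233 and 322, Klf2 at 897 and 745, and Il7r at 1053 and 1067. CV replicate 2 held 19 of the 32 CD8 cells and the other libraries 1, 10 and 2, while the CD4 cells were spread over the libraries as 7 to 9 each. As means of the 4 libraries, Tcf7 stood at 569 ± 132 CPM (SD) in the CD8 and 487 ± 131 in the CD4 cells, the other way round from the sums, and Dapl1 at 382 ± 255 and 340 ± 206. Of the CD8 cells 17 of 32 had 4 or more of the genes, and of the CD4 cells 11 of 31. The Cxcr6-positive CD4 cells held no Dapl1 UMI, while the Cxcr6-positive CD8 cells held 27.

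Other genes of the same biology were read in the Cxcr6 comparison from lists of homing, residency, sphingosine, interleukin 7, TCF1 and LEF1, quiescence and naive T cell genes. Of 11 naive T cell genes tested, 6 were called lower in Cxcr6-positive cells and 1 higher, with a median log2 difference of -1.18. The lower ones were led by Igfbp4, an IGF-binding protein (-6.23 ± 0.45), Actn1, an actin cross-linker (-4.54 ± 0.35), and Nsg2 (-5.09 ± 0.50). Of 10 homing genes, 3 were called lower and 4 higher, with a median of 0.85. Ccr7, the receptor that guides naive T cells into lymph nodes (-4.66 ± 0.40), Itga4, an integrin chain (-2.64 ± 0.25), and Ccr2, a chemokine receptor (1.99 ± 0.24), had the smallest p. The other higher ones were Cxcr3, a chemokine receptor, and the integrin chains Itgb2 and Itgal.

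Of 19 quiescence genes, 6 were called lower and 1 higher, with a median of -0.26. Tsc22d3, which encodes the glucocorticoid-induced leucine zipper GILZ (-1.93 ± 0.17), Peli1 (-1.40 ± 0.20) and Rgs10 (-1.61 ± 0.27) led them. Of 10 partners of TCF1 and LEF1 and factors of naive T cells, 5 were called lower and none higher, with a median of -0.41. They included Foxp1, a factor that keeps naive T cells quiescent (-1.02 ± 0.20), Tox (-1.43 ± 0.30) and Bach2 (-1.71 ± 0.41). Of 10 residency genes 2 were called, both higher: Id2, an inhibitor of E proteins (1.68 ± 0.16), and Itga1, the CD49a integrin chain (1.13 ± 0.34). Of 10 interleukin 7 signalling genes, Socs1 (0.93 ± 0.29) and Bcl2 (0.48 ± 0.15) were called higher and Mcl1 (-0.62 ± 0.18) lower. None of the 7 sphingosine-1-phosphate genes tested other than S1pr1 passed the test, and the smallest p in that list was that of Cd69, whose protein pulls S1PR1 off the cell surface (-0.34 ± 0.17, adjusted p = 0.32). All are edgeR values from the same fit, and the median over all genes is given above.

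Outside T cells, the 6 genes parted ways. Natural killer cells and type 1 innate lymphoid cells (ILC1), gated together on receptors such as Ncr1 and Klrb1c, numbered 95, and the 3 libraries with at least 10 of them were compared with their T cells. Of the 6 genes, 5 were called lower (edgeR, adjusted over 6747 genes, 10.4% of them called in either direction and 5.82% lower). The log2 differences were -3.02 ± 0.35 for Lef1, -2.51 ± 0.38 for Tcf7 and -2.43 ± 0.22 for Il7r, all with adjusted p at or below 1.4e-06. Once the 8 cells of PV replicate 1 were added, Tcf7 was at -1.70 and Il7r at -1.44, and with shared barcodes kept at -1.66 and -1.44, all called. Dapl1 had no UMI in the 95 cells against 241 in the T cells, at least 7.95-fold lower with a floor of 3 counts over the group (adjusted p = 5.8e-07). Klf2 was not called (0.11 ± 0.21, adjusted p = 0.85). Of the naive T cell genes 7 of 11 were called lower and 1 higher, of the quiescence genes 6 of 20 were called lower and none higher, and of 14 genes known to respond to tissue dissociation 5 were called lower and none higher.

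S1pr1 was called lower in natural killer cells and ILC1 (log2 difference -1.97 ± 0.54, edgeR adjusted p = 0.0094), but this rested on few UMIs. The 4 libraries held 4, 5, 0 and 1 S1pr1 UMIs in these cells (PV replicates 1 and 2, CV replicates 1 and 2), and the adjusted p was 0.31 without CV replicate 2, 0.20 with DESeq2, 0.064 with shared barcodes kept and 0.069 once the 8 cells of PV replicate 1 were added. Over its 12 alternatives the adjusted p ran from 0.00066 to 0.31. The T cells of this comparison held both Cxcr6 states. As means of the 4 libraries, S1pr1 stood at 41.5 ± 49.1 CPM (SD) in natural killer cells and ILC1. Cxcr6-positive T cells held 14.1 ± 4.78 CPM and Cxcr6-negative ones 224 ± 130 CPM, and neither was tested alone. PV replicate 1 also stood apart for Il7r, with 48 UMIs in its 8 natural killer cells and ILC1 (1259 CPM), against 55.5 CPM in PV replicate 2, 120 in CV replicate 1 and 127 in CV replicate 2.

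Within this gate, some cells had only markers of natural killer cells (Eomes, Itgam or Itga2). Others had only markers of ILC1 (Itga1, Cd200r1, Cxcr6 or Tnfsf10), and the 2 types differed in Klf2 and Il7r. Cxcr6 thus helped to set this division too, with a UMI in 47 of the 63 ILC1-type cells and, by the gate, in no natural-killer-type cell. The 16 natural-killer-type cells held 106 Klf2 UMIs (1498 CPM), with 839 and 1448 CPM in PV replicates 1 and 2 and 1202 and 1828 CPM in CV replicates 1 and 2, and no Il7r UMI. The 63 ILC1-type cells held 64 Klf2 UMIs (204 CPM), 49 of them in 1 cell, and 84 Il7r UMIs (268 CPM), 48 of them in PV replicate 1. Il7r was thus at least 6.32-fold higher in the ILC1-type sum, with the floor of 3 counts over the 16 cells, and at least 2.45-fold without PV replicate 1. With 1 to 7 natural-killer-type cells in a library, no test was made.

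B cells kept the recirculation pair and lacked the T cell genes. S1pr1 stood at 350 and 282 CPM in the B cells of PV replicates 1 and 2, and at 312 and 211 CPM in CV replicates 1 and 2. Klf2 stood at 852, 1797, 1665 and 1087 CPM in the same order. All 4 B cell values of both genes were above the T cell value of their library, with log2 differences of 2.75 ± 0.24 for S1pr1 (edgeR adjusted p = 1.1e-13) and 2.55 ± 0.13 for Klf2 (2.0e-22). Of 14 dissociation response genes, 8 were also called higher and 1 lower in B cells than in T cells, and their part in the Klf2 difference was not tested. All 6 genes were called, 2 higher and 4 lower, where 29.7% of 6978 genes were called in either direction, 13.9% higher and 15.8% lower. B cells had 1 Lef1 UMI, 2 Tcf7 UMIs, 3 Il7r UMIs and no Dapl1 UMI in 155 cells. The T cell level was 90.8 times that of B cells for Lef1 (exact 95% counting interval 16.2 to 3593), 34.1 times for Tcf7 (9.40 to 283), 104 times for Il7r (35.4 to 502) and at least 10.6 times for Dapl1. All Lef1 and Tcf7 UMIs of B cells lay in 1 cell, of CV replicate 2, which also had an Il7r UMI and was marked as a doublet by scrublet. Without it the T cell level was at least 29.9 times that of B cells for Lef1 and at least 22.5 times for Tcf7, with the floor of 3 counts over the group, and 153 times for Il7r (42.4 to 1267). Among the lists, 8 of 11 naive T cell genes and 7 of 10 residency genes were called lower in B cells and none higher, while of 19 quiescence genes 4 were lower and 3 higher. Thinned shares in B cells were 30.6% (23.7 to 38.5%) for S1pr1 and 81.6% (74.6 to 87.1%) for Klf2. Endothelial markers summed to 83.6 to 119 CPM in B cells, 61 of 63 UMIs being Pecam1 and 5 of the 7 markers at 0. The B cell gate shut out cells rich in endothelial markers, so their low level was in part set by the gate.

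S1pr1 in B cells was of the order of that in Cxcr6-negative T cells. The 4 B cell values, 211 to 350 CPM, lay within the range of the Cxcr6-negative T cell values, 114 to 406 CPM. Of the 446 S1pr1 UMIs of the kept cells, 170 lay in the 155 B cells and 159 in the 106 Cxcr6-negative T cells.

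Klf2 was the gene least bound to lymphocytes. Macrophages held 40.1% of its 6536 UMIs, at 558 and 1174 CPM in PV replicates 1 and 2 and 1281 and 914 CPM in CV replicates 1 and 2. Neutrophils reached 1140 to 1787 CPM, and plasmacytoid dendritic cells 1507 to 1945 CPM in 3 libraries but 53.5 CPM in PV replicate 1, which held 3 of these cells. Conventional dendritic cells were lower, at 96.6 to 365 CPM. By the mean of the 4 libraries, the order of Klf2 levels over 8 classes was neutrophils (1396 CPM), B cells (1350), plasmacytoid dendritic cells (1344), macrophages (982), Cxcr6-negative T cells, natural killer cells and ILC1, dendritic cells and Cxcr6-positive T cells, and the library values of each class overlapped those of its neighbours. In the sums pooled over libraries plasmacytoid dendritic cells came first and B cells stood above neutrophils.

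Il7r had 1 more source. The 33 plasmacytoid dendritic cells held 112 Il7r UMIs, at 71.4 and 345 CPM in PV replicates 1 and 2 and 533 and 371 CPM in CV replicates 1 and 2, and 45.5% of them had a UMI after thinning (29.8 to 62.0%). Conventional dendritic cells held 19 UMIs and macrophages 27 (1.21% of thinned cells). Lef1, Tcf7 and Dapl1 had no UMI in neutrophils (0 of 79 thinned cells, which allows a share of up to 3.80%) and at most 7 in macrophages.

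**Figure D3:**
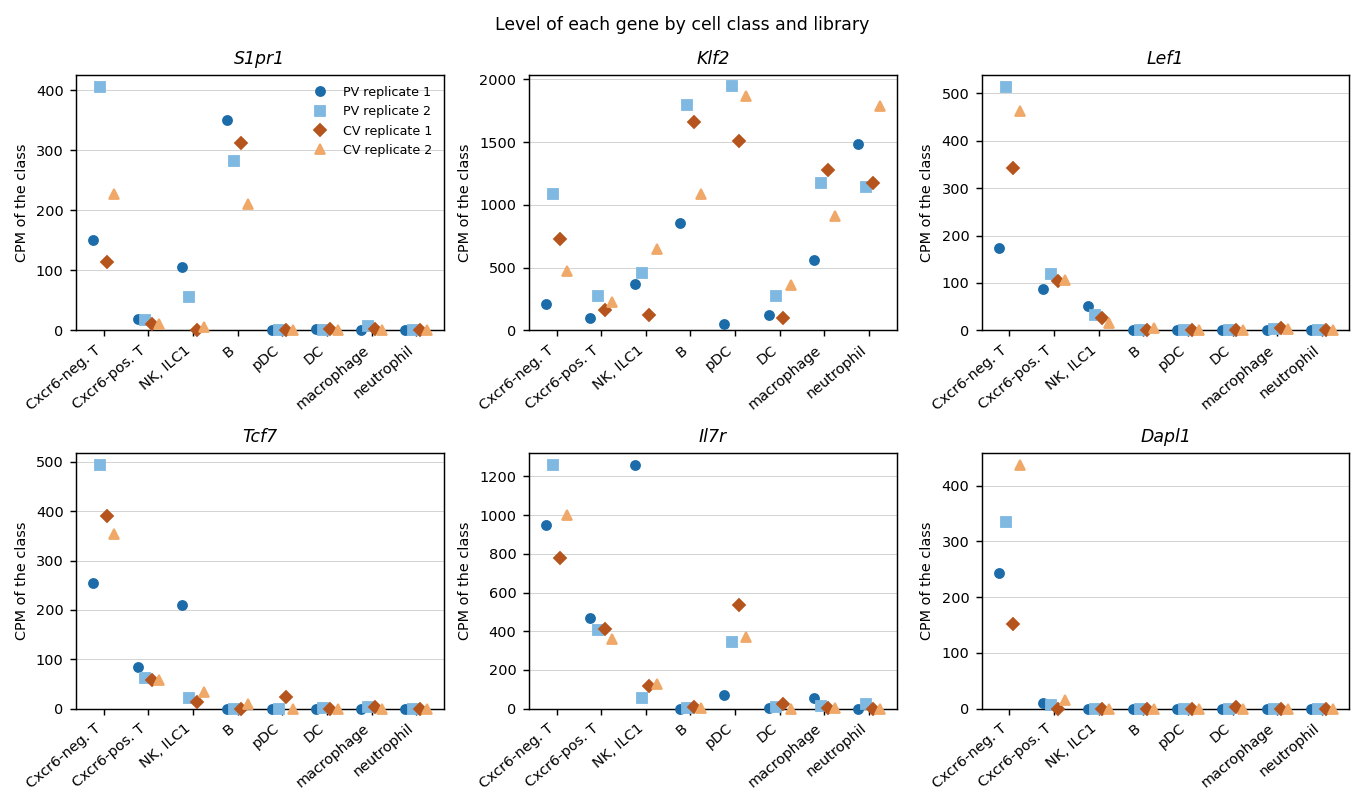
Level of each gene (CPM of the summed class, linear axis from 0, a scale of its own in each panel) in 8 gated classes, with 1 symbol per library. Lef1, Tcf7 and Dapl1 are highest in Cxcr6-negative T cells, and S1pr1 there and in B cells. Klf2 is also high in macrophages, neutrophils and plasmacytoid dendritic cells. It reaches 1945 in the last of these, though not in PV replicate 1, and is lower in conventional dendritic cells.

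Between the zones, none of the 6 genes was called in T cells. In all T cells, with 2 libraries per zone, 0 of 7902 genes (0%) passed edgeR's adjusted threshold, while 236 had an unadjusted p under 0.05 and DESeq2 called 1 gene. S1pr1 was measured at 51.7 ± 33.5 CPM (SD, n = 2) in PV and 38.4 ± 24.6 CPM in CV. Klf2 was at 252 ± 207 and 253 ± 40.8, Lef1 at 135 ± 60.8 and 156 ± 37.7, and Tcf7 at 111 ± 21.6 and 107 ± 19.4. Il7r was at 516 ± 22.6 and 473 ± 33.4, and Dapl1 at 40.5 ± 21.0 and 60.3 ± 62.7. Of the 6, Il7r had the smallest error, with a log2 difference of 0.08 ± 0.13 (SE), and Dapl1 the largest, with -0.65 ± 0.66.

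Among Cxcr6-negative T cells alone, 0 of 1907 genes (0%) were called (48 at an unadjusted p under 0.05, and DESeq2 called 0). The log2 differences, PV over CV, ran from -0.25 ± 0.44 (Lef1) to 0.64 ± 0.47 (S1pr1). Nor was any of the 6 called in the Cxcr6-positive T cells (0% of 7479 genes, 246 at an unadjusted p under 0.05, DESeq2 0), a comparison added after seeing the data. The PV libraries held 19.2 and 17.2 CPM of S1pr1 in these cells (23 and 19 UMIs), the CV libraries 10.1 and 9.95 CPM (9 UMIs each). The log2 difference of S1pr1 there, 0.83 ± 0.40 (edgeR adjusted p = 0.999), stayed between 0.64 and 0.90 over 13 alternatives, which rest on the same libraries. The smallest p that an exact test of 2 against 2 libraries can give is 0.333. The interaction of zone and Cxcr6 state called 5 of 6684 genes (0.0748%), none of them among the 6.

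What the zones showed for Klf2 depended on which PV library was kept, and the values do not tell which of the 2 stands apart. PV replicate 2 had the highest Klf2 level of the 4 libraries in Cxcr6-negative T cells, Cxcr6-positive T cells and B cells (1090, 276 and 1797 CPM). PV replicate 1 had the lowest Klf2 level of the 4 libraries in Cxcr6-negative T cells (209 CPM against 474 to 1090). The same held in Cxcr6-positive T cells (98.3 against 164 to 276) and B cells (852 against 1087 to 1797). It also held in macrophages (558 against 914 to 1281) and, with only 3 cells in PV replicate 1, in plasmacytoid dendritic cells (values above). It did not hold in neutrophils, conventional dendritic cells or natural killer cells and ILC1. Without PV replicate 2, which leaves PV replicate 1 as the lone portal library and assumes that it varies like the others, Klf2 was called lower in PV, with log2 differences of -1.31 ± 0.26 in T cells (edgeR adjusted p = 0.0074, 38 genes called) and -1.58 ± 0.45 in Cxcr6-negative T cells (adjusted p = 0.037, 22 genes called). Without PV replicate 1 the differences were 0.62 ± 0.23 and 0.83 ± 0.36, in the other direction and not called (9 and 11 genes called).

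PV replicate 1 was also lowest in 14 genes known to respond to tissue dissociation, such as Fos and Hspa1a. Their summed level in T cells was 3370 CPM in PV replicate 1, 6787 in PV replicate 2, 8282 in CV replicate 1 and 5550 in CV replicate 2. In B cells it was 2580, 10938, 10331 and 5478 CPM, the same order of libraries as for Klf2, while in T cells the other libraries were ordered differently. The part of dissociation in the Klf2 levels was not tested. Between Cxcr6 states of T cells, 1 of 13 dissociation genes tested was called (Dusp1, 0.86 ± 0.20, higher in Cxcr6-positive cells).

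**Figure D4:**
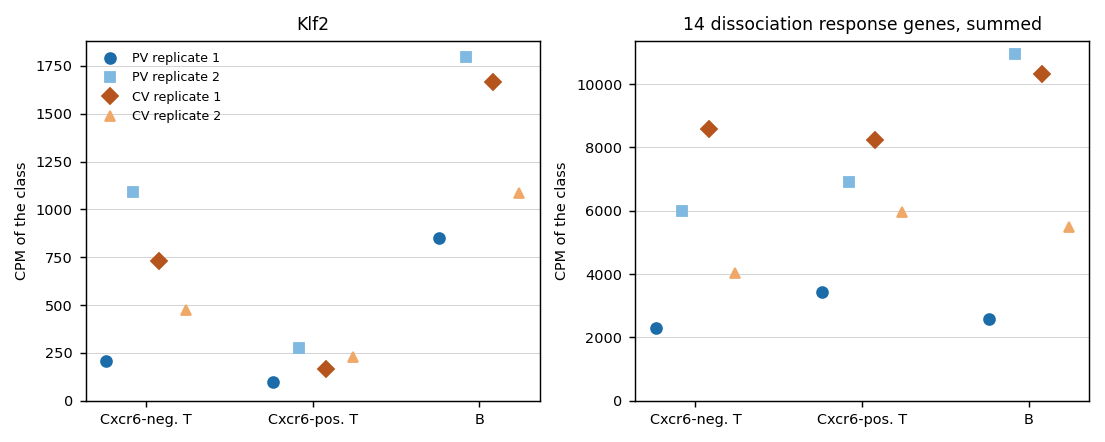
Klf2 level (left) and the summed level of 14 dissociation response genes (right), both in CPM of the summed class on linear axes from 0, in 3 gated classes with 1 symbol per library. PV replicate 1 is the lowest library in every class of both panels.

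**Figure D5:**
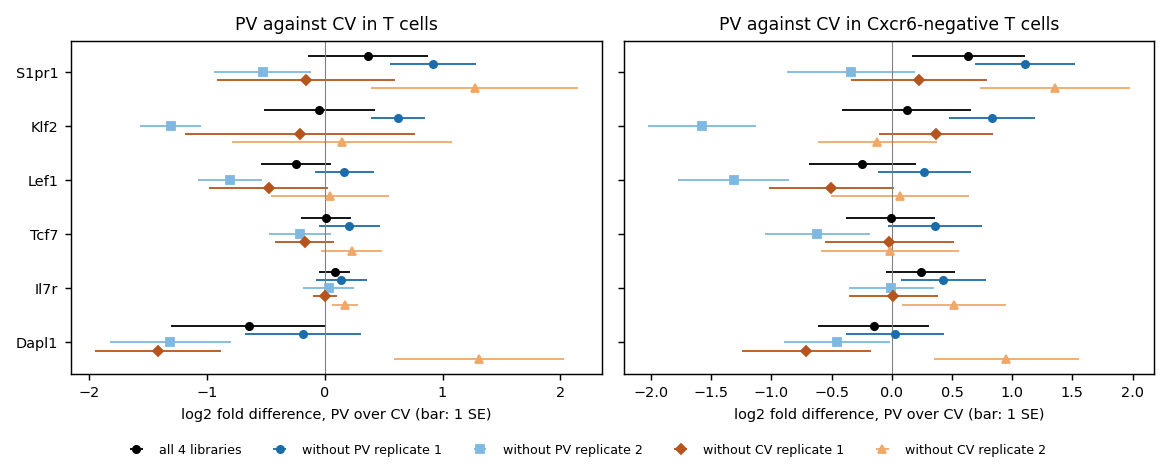
Log2 difference of each gene, PV over CV, with bars of 1 SE, in all T cells (left) and in Cxcr6-negative T cells (right), with all 4 libraries and without each in turn. Klf2 in T cells moves from -1.31 without PV replicate 2 to 0.62 without PV replicate 1.

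The share of T cells in the Cxcr6-negative class also varied between libraries of a zone. It was 7.98% (95% Wilson interval 4.89 to 12.7%) and 17.1% (12.5 to 22.9%) in PV replicates 1 and 2, and 13.0% (8.69 to 19.1%) and 22.6% (16.8 to 29.7%) in CV replicates 1 and 2. The zones overlapped, the replicates of a zone differed by more than the means of the zones, and replicate 2 was above replicate 1 in both zones. The level of each gene in all T cells therefore mixes the level per cell with the share of such cells, which cannot be told apart in the sums of all T cells. The zone comparisons within each Cxcr6 state, given above, leave that share out.

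Likeness of pattern was read over 28 sums of a class in a library, as Pearson's r of log2 CPM with 10 CPM added, among 5746 genes. The sums share libraries and depth, so r is a description. The 3 genes most like each member were Tcf7 (0.98), Trat1 (0.96) and Cd247 (0.94) for Lef1, Lef1 (0.98), Cd247 (0.94) and Trat1 (0.93) for Tcf7, and Cd28 (0.91), Bcl11b (0.89) and Lef1 (0.89) for Il7r. For Dapl1 they were Tcf7 (0.88), A430093F15Rik (0.87) and Lef1 (0.84). For S1pr1 they were Gm8369 (0.93), BE692007 (0.89) and Crlf3 (0.89), and for Klf2 Rasgrp2 (0.78), Tsc22d3 (0.78) and Rasa3 (0.77). Lef1, Tcf7, Il7r and Dapl1 resembled each other with r from 0.73 to 0.98, while Klf2 had r from -0.36 to 0.20 with the other 5 genes.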

How the data were processed

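Each library came as 1 matrix, in which the authors deposited the raw count of UMIs for every gene and cell barcode, from 10x single-cell 3′ chemistry per the labels' protocols. The submitters' processing notes name Cell Ranger 4.0.0 and mm10, and the annotation is not given in the sources used here. Symbols were found for 32158 of 32285 gene identifiers. The 6 genes, the gene lists and the tests were chosen with earlier results of these data known.

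Barcodes with at least 200 genes and at most 10% mitochondrial UMIs were kept. Of 1939 barcodes, 282 were in more than 1 library, 152 of them in all 4, and each was kept only in the library with at least 70% of its UMIs, which left 27 such T cells. Libraries held 2741760 to 4373488 UMIs. Cells were gated by marker UMIs; 117 met no gate. A T cell gate on all fixed T cell markers took in natural killer cells (91 of 95 had a Cd3g or Trbc UMI), so Cd3d, Cd3e and Trac were used, a choice made after marker UMIs were seen. The T cell gate shut out cells rich in B cell, macrophage, endothelial or dendritic cell markers, but not those with natural killer or neutrophil markers. Scrublet in scanpy 1.11.5 marked 12 cells, left out in an alternative.

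Counts were summed per library and class, with at least 10 cells, and tested with edgeR 4.0.16 in R 4.3.3 (quasi-likelihood test, TMM, filterByExpr, Benjamini-Hochberg adjustment over all genes at 0.05), with the library as a block within libraries. The SE is the log2 difference over the square root of F. DESeq2 1.42.0 was an alternative. The test was tested on simulated data, the outcome of which is not given here and is not relied on. Shares are of cells thinned to 2000 UMIs, and a count of 0 allows 3 counts. Beside the 6 genes, the named genes are up to 3 per list with the smallest p in the Cxcr6 comparison and the 3 most alike per gene; further genes that a list called were named after their values were seen. Replicate numbers were not taken as pairs. One homing gene is not reported here and was left out of its list.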

Additional observations from a re-analysis of the deposited data

Results flagged for a closer look

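The 117 cells that met no marker gate enter no comparison, and 5 of the 6 genes had UMIs in more of them than the limit that a count of 0 allows (3.61% of the 83 cells with at least 2000 UMIs). After thinning, 34.9% had a Klf2 UMI (95% Wilson interval 25.6 to 45.7%), 25.3% an Il7r UMI (17.2 to 35.6%), 10.8% a Lef1 UMI (5.81 to 19.3%), 9.64% an S1pr1 UMI (4.97 to 17.9%) and 7.23% a Tcf7 UMI (3.36 to 14.9%). Dapl1, with 3 UMIs in 1 of the 117 cells, stayed under the limit. In 5 of the 83 cells 4 or more of the genes had a UMI. What these cells are was not tested.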

How the results depend on the processing

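The call of all 6 genes between Cxcr6 states held under RLE size factors, DESeq2, no filter on low counts, shared barcodes kept, stricter cell filters, doublets left out, at least 5 gating UMIs, at least 2 Cxcr6 UMIs and without each library; with cells thinned to 2000 UMIs, Lef1 gave -0.92 (adjusted p = 0.058). Genes called there numbered 444, and 264 with DESeq2, 64 after thinning, 186 in CD4 T cells alone and 182 to 425 without each library. Against natural killer cells and ILC1, 700 genes were called, 344 with DESeq2, and 3 to 5 of the 6 genes without each library, since Dapl1 was not tested without PV replicate 2 or CV replicate 2 and S1pr1 was not called without CV replicate 2. In B cells the 6 calls held in every alternative run. The comparison of CD8 with CD4 cells was not run, for lack of cells.

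Klf2 in natural killer cells and ILC1 against T cells was -0.017 with DESeq2, -0.031 without a filter, -0.29 with barcodes of 1 library only and -0.53 to 0.51 without each library, and was not called in any of them. For the zones, leaving out each library gave 0 to 1 of the 6 genes and 0 to 38 genes in all T cells, 0 to 1 and 10 to 25 in Cxcr6-negative T cells, none of the 6 and 3 to 7 genes for the interaction, and none of the 6 and 0 to 29 genes in Cxcr6-positive T cells. The lowest count in Cxcr6-negative cells was without CV replicate 2 and the highest without CV replicate 1. Log2 differences of the zones ran without each library, in all T cells, from -0.53 to 1.27 for S1pr1, -1.31 to 0.62 for Klf2, -0.80 to 0.16 for Lef1, -0.21 to 0.23 for Tcf7 and -1.41 to 1.31 for Dapl1. In Cxcr6-negative T cells they ran from -0.34 to 1.36 for S1pr1, -1.58 to 0.83 for Klf2, -1.31 to 0.27 for Lef1, -0.62 to 0.36 for Tcf7, -0.0039 to 0.52 for Il7r and -0.71 to 0.95 for Dapl1; Tcf7 was 0.015 without a filter and 0.021 with the stricter cell filter. The interaction ran from -0.50 to 1.18 for S1pr1, -0.45 to 0.55 for Klf2 (0.015 with DESeq2), -0.19 to 1.01 for Lef1, -0.35 to 1.15 for Tcf7, -0.50 to 0.29 for Il7r and -0.39 to 4.32 for Dapl1. In Cxcr6-positive T cells the zones gave -1.03 to 0.47 for Klf2, -0.31 to 0.16 for Lef1 and -0.93 to 6.14 for Dapl1 (-0.014 with barcodes of 1 library only). The cause was not tested.

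Counts of genes called between zones also moved with other settings. DESeq2 called 1 gene in all T cells and 0 for the interaction (5 in edgeR). Without a filter, 8 genes were called in Cxcr6-negative and 37 in Cxcr6-positive T cells. With barcodes of 1 library only, 2 were called for the interaction and 1 in Cxcr6-positive T cells. The differences of replicate 1 and 2 correlated between zones at 0.085 in T cells and -0.028 in Cxcr6-negative T cells, and no source used here says what a shared number stands for, so the numbers were not taken as pairs. With the replicate block, Klf2 in Cxcr6-negative T cells was -0.18 (adjusted p = 0.999), 416 genes were called between Cxcr6 states, none between zones in all or in Cxcr6-negative T cells, and 37 in Cxcr6-positive T cells. Shares of cells with a UMI moved with depth: without thinning, 28.5% of Cxcr6-positive T cells had a Tcf7 UMI on average over libraries, and 5.86% with thinning to 1000 UMIs. With 2 libraries per zone and 15 to 36 Cxcr6-negative T cells in each, depth and cell number limit what the zones can show.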
